A study of Mus musculus with 9 samples.

Results

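The translation initiation and elongation factor genes were taken as the protein-coding rows of the deposited table whose symbol starts with Eif1 to Eif6, Eef1 or Eef2, which includes the 4 eIF2 kinases and the 3 4E-binding proteins. The rule found 63 of 35275 genes, and 58 of them passed the filter on low counts among 13082 genes tested. RNA-seq was done on mouse embryonic fibroblasts (MEFs), cultured cells from embryos, here of the C57Bl/6 strain and wild type, in 9 libraries. The 3 iso-osmolar libraries came from cells in normal medium, 3 from cells given 200 mM added sucrose (500 mOsm, the lower stress intensity) and 3 from cells given 300 mM added sucrose (600 mOsm, the higher stress intensity), each for 3 hr. All groups shared the same DMEM medium with fetal bovine serum, and the study asked which genes respond differently to the intensities. The labels do not say whether libraries of a group came from separate cultures, so p-values measure the spread between these libraries, which may be technical.

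Initiation starts when eIF2, bound to GTP, brings the initiator tRNA to the small ribosomal subunit, with eIF1, eIF1A, eIF5 and the large scaffold eIF3. The cap-binding complex eIF4F, made of the cap-binding protein eIF4E, the scaffold eIF4G and the helicase eIF4A, loads this subunit on the mRNA. Kinases that phosphorylate the alpha subunit of eIF2 block its recycling by eIF2B and lower global initiation, and 4E-binding proteins keep eIF4E from eIF4G until mTORC1 phosphorylates them. During elongation eEF1A delivers aminoacyl-tRNAs and eEF2 moves the ribosome. These proteins are controlled largely by phosphorylation, which RNA-seq does not measure.

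Libraries held 21716042 to 26740832 counts on genes. Of 10 fibroblast markers 8 were above 1 FPKM (all but Dcn and Lum), and markers of epithelium, leukocytes, endothelium, neurons and skeletal muscle summed to at most 4.58 FPKM for any type in any library. The endothelial sum moved with stress, from 0.202 to 0.246 FPKM in iso-osmolar libraries to 3.36 to 3.83 FPKM at 500 mOsm and 0.577 to 0.901 FPKM at 600 mOsm, with Pecam1 as its member above 1 FPKM. The epithelial sum was 0.883 to 1.09 FPKM in iso-osmolar libraries, 1.81 to 2.46 FPKM at 500 mOsm and 0.982 to 1.41 FPKM at 600 mOsm, and the leukocyte sum 3.24 to 3.57, 4.32 to 4.58 and 3.40 to 3.66 FPKM. The fibroblast sum was highest at 600 mOsm, at 4860 to 4962 FPKM beside 4323 to 4584 FPKM in the other libraries. The part of these shifts in the results below was not tested. In bulk RNA, fewer cells of a type and less RNA per cell cannot be told apart. Values per library are CPM (counts scaled to the TMM-adjusted library total), and ± after a log2 fold change is its standard error. A gene is called higher or lower where the edgeR quasi-likelihood test gave a Benjamini-Hochberg adjusted p under 0.05 over all genes tested, and a gene not called is not thereby shown to be unchanged.

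By FPKM, which corrects for gene length, the factor genes covered the whole range of expression. Eef1a1, the main aminoacyl-tRNA carrier, averaged 4202 FPKM over the 9 libraries and ranked 3rd of all genes, Eef2 averaged 3146 FPKM and ranked 8th, and Eif5a, the hypusine-carrying factor, averaged 2428 FPKM and ranked 13th. The eIF2 kinases were far lower per length, from 10.6 FPKM for Eif2ak1 (HRI) through 4.24 for Eif2ak3 (PERK) and 3.70 for Eif2ak4 (GCN2) to 1.92 FPKM for Eif2ak2 (PKR). The 5 genes not tested were Eif4e1b, Eif4e3, Eif4ebp3, Eef1a2 and Eif2s3y. Eef1a2, the muscle and neuron form, had 0 to 8 counts per library, Eif4ebp3 0 to 8, Eif4e3 1 to 10 and Eif4e1b 0 or 1. Eif2s3y, the Y-linked eIF2 gamma gene, had 0 counts in every library, which allows up to 0.138 CPM in the shallowest one (3 counts, counting error only).

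Summed over factor genes, the counts made up 3.70% ± 0.0114 (SD, n = 3) of an iso-osmolar library's total, 3.70% ± 0.0601 at 500 mOsm and 3.91% ± 0.0146 at 600 mOsm. The 3 libraries at 600 mOsm, at 3.91%, 3.92% and 3.90%, lay above all other libraries, which ran from 3.65% to 3.77%. The exact two-sided permutation test gave p = 0.1 for 600 mOsm against either other group, the smallest p that 3 against 3 libraries allow, and p = 0.8 for 500 mOsm against iso-osmolar. Without Eef1a1 and Eef2 the share was 2.05% to 2.06% in iso-osmolar libraries, 1.97% to 2.03% at 500 mOsm and 2.04% to 2.08% at 600 mOsm.

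At 500 mOsm 1 factor gene was higher than in iso-osmolar cells and 8 were lower, which is 1.72% and 13.8% of the 58 tested, beside 13.2% higher, 14.8% lower and 28.0% called either way over all 13082 genes. The median log2 fold change of the factor genes was -0.050, beside 0.013 over all genes. The share lower was thus near the background and the share higher below it. At 600 mOsm 9 were higher and 8 lower than in iso-osmolar cells, which is 15.5% and 13.8%, beside a background of 15.1% higher, 20.0% lower and 35.1% either way, with medians of 0.046 and 0.0075. Leaving out iso-osmolar replicate 1 or 600 mOsm replicate 3 left 3 factor genes lower at 600 mOsm than in iso-osmolar cells in place of 8.

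Between the stress intensities the balance was different: 18 factor genes were higher at 600 than at 500 mOsm and 4 were lower. These are 31.0% and 6.90% of the genes tested, beside 11.9%, 17.2% and, in either direction, 29.1% over all genes, and the medians were 0.11 for factor genes and 0.0061 for all genes. The genes higher at 600 than at 500 mOsm held 8 of 14 eIF3 subunits and all 5 eEF1 genes tested. The eEF1 genes were grouped by symbol and include Eef1e1 of the multi-synthetase complex. The 4 lower genes were Eif4g3, Eif4enif1, Eif4g1 and Eif4b. Without 500 mOsm replicate 2 there were 2 lower genes, Eif4g3 and Eif4enif1. The changes were small. Among called factor genes the median absolute log2 fold change was 0.25 at 500 mOsm against iso-osmolar, 0.22 at 600 mOsm against iso-osmolar and 0.21 between the intensities, beside 0.58, 0.41 and 0.45 over all called genes. Factor genes also varied less within groups, with a median SD of log2 CPM of 0.068 beside 0.124 over all genes tested. The background shares were not matched for this spread. In all, 26 of the 58 genes tested were called in no comparison, beside 49% of all genes tested, so this share was near the background. The 2 groups did not overlap for any called factor gene, with no count over all called genes to set beside it.

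**Figure D1:**
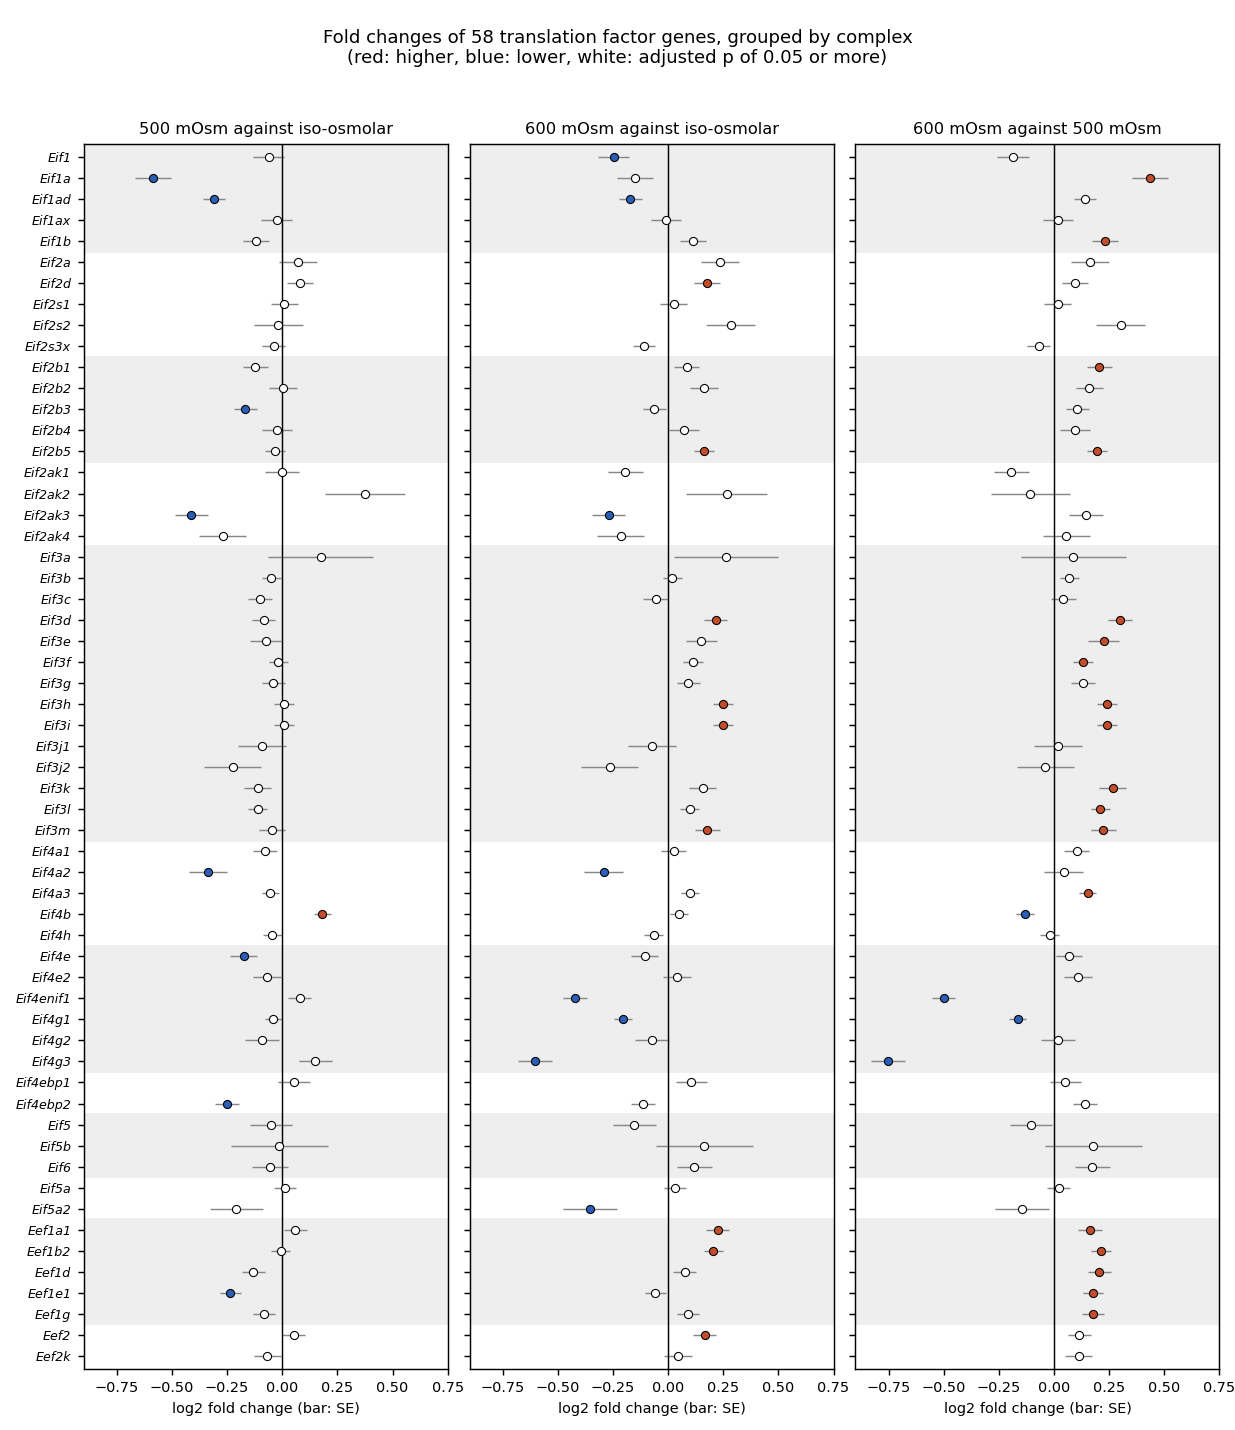
Log2 fold change with its standard error for each of the 58 factor genes tested, in rows grouped by complex (shaded bands), with one panel per comparison. Red points are higher, blue points lower and white points not called, and in the panel of 600 against 500 mOsm the eIF3 and eEF1 bands hold 13 red points and no blue ones.

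The scaffold genes of cap-dependent initiation fell at the higher intensity. Eif4g3 (eIF4GII, the minor eIF4G scaffold, chromosome 4, 137993022 to 138208508, plus strand in mm10) was at 19.9, 19.7 and 21.0 CPM in the iso-osmolar libraries, 23.7, 22.3 and 21.1 CPM at 500 mOsm and 13.3, 13.7 and 12.8 CPM at 600 mOsm. All 3 libraries at 600 mOsm were below every other library, and the 500 mOsm libraries sat just above the iso-osmolar ones. It fell by 40.7% from 500 to 600 mOsm (log2 fold change -0.75 ± 0.077, adjusted p = 1.23e-05) and by 34.1% from iso-osmolar to 600 mOsm (log2 fold change -0.60 ± 0.077, adjusted p = 7.57e-05, and log2 fold change -0.38, adjusted p = 0.000413 with a correction for GC content and length), while 500 mOsm against iso-osmolar was not called (log2 fold change 0.15 ± 0.075, adjusted p = 0.162). Eif4g1 (eIF4GI, the main scaffold that joins eIF4E, eIF4A and eIF3, chromosome 16, 20668313 to 20692884, plus strand) was at 2084, 2124 and 2056 CPM in the iso-osmolar libraries, 1986, 2082 and 2023 CPM at 500 mOsm and 1847, 1778 and 1809.9 CPM at 600 mOsm. Its 600 mOsm libraries again lay below all others, for a smaller fall of 13.2% against iso-osmolar (log2 fold change -0.20 ± 0.039, adjusted p = 0.00155) and 10.8% against 500 mOsm (log2 fold change -0.16 ± 0.039, adjusted p = 0.00713). Its adjusted p against 500 mOsm was 0.0574 without 500 mOsm replicate 2. With the GC content and length correction the log2 fold changes of Eif4g1 were smaller (log2 fold change -0.10, adjusted p = 0.0236 against iso-osmolar, and log2 fold change -0.078, adjusted p = 0.0894 against 500 mOsm), and the call against iso-osmolar was lost once the replicate block was added (log2 fold change -0.10, adjusted p = 0.0547). Between the intensities it was also lost with no filter on low counts (adjusted p = 0.0553). Eif4g2 (DAP5, an eIF4G homolog that does not bind eIF4E) was not called in any comparison, with log2 fold changes of -0.091 ± 0.077, -0.071 ± 0.077 and 0.019 ± 0.077.

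Eif4enif1 (4E-T, which carries eIF4E into the nucleus and to P-bodies, chromosome 11, 3202392 to 3244588, plus strand) was at 116, 112 and 108 CPM in the iso-osmolar libraries, 116, 117 and 122 CPM at 500 mOsm and 83.5, 88.5 and 79.5 CPM at 600 mOsm. The iso-osmolar and 500 mOsm libraries overlapped and the 600 mOsm libraries stood apart below them, a fall of 29.3% from 500 mOsm (log2 fold change -0.50 ± 0.053, adjusted p = 1.80e-05) and 25.4% from iso-osmolar (log2 fold change -0.42 ± 0.053, adjusted p = 6.65e-05). The gene span of Eif4enif1 lies over that of Drg1 on the other strand, and the library protocol gives no step that marks strand. Reads of any exon stretch shared by both thus could not be told apart. The longest transcript of Eif4enif1 shared no stretch of at least 100 bases at 95% identity with that of another listed gene. Drg1 itself was not called in any comparison (log2 fold changes 0.0099, -0.019 and -0.029). Eif4e, the cap-binding protein, was at 145, 133 and 139.9 CPM in the iso-osmolar libraries, 123, 115 and 131 CPM at 500 mOsm and 130.1, 136 and 122 CPM at 600 mOsm. The 500 mOsm libraries were below the iso-osmolar ones with no overlap (log2 fold change -0.17 ± 0.061, adjusted p = 0.0482), but the call held in 7 of 20 alternative settings. The call was lost without iso-osmolar replicate 1, iso-osmolar replicate 3, 500 mOsm replicate 1, 500 mOsm replicate 2 or 600 mOsm replicate 1 (adjusted p from 0.0652 to 0.149). Eif4e2 (4EHP, a cap-binding repressor) was not called.

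The helicase genes moved in different ways. Eif4a1, the main eIF4A, was at 917, 859 and 871 CPM in the iso-osmolar libraries, 794, 814 and 898 CPM at 500 mOsm and 935, 907 and 850.1 CPM at 600 mOsm and was not called (-0.078 ± 0.055, 0.024 ± 0.055 and 0.10 ± 0.055 in the 3 comparisons). Without 500 mOsm replicate 3 the adjusted p of Eif4a1 between the intensities was 0.0449. Eif4a2, its paralog, was at 101, 87.5 and 94.5 CPM in the iso-osmolar libraries, 76.4, 69.7 and 78.0 CPM at 500 mOsm and 79.2, 85.4 and 66.5 CPM at 600 mOsm. Both stressed groups lay below the iso-osmolar one, and the stressed groups overlapped each other. Its log2 fold change was -0.34 ± 0.086 at 500 mOsm (adjusted p = 0.0105) and -0.29 ± 0.086 at 600 mOsm (adjusted p = 0.0195). When fitted without iso-osmolar replicate 1 its adjusted p at 600 mOsm was 0.0772, and without 600 mOsm replicate 3 it was 0.0715. The 500 mOsm call of Eif4a2 held in 20 of 20 alternative settings. Rfc4 overlaps Eif4a2 by 194 bases on the other strand and was not called.

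Eif4b, which stimulates eIF4A and is a target of S6 kinase, was the 1 factor gene higher at 500 mOsm than in iso-osmolar cells. It was at 925, 923 and 893 CPM in the iso-osmolar libraries, 1023, 1056 and 1027 CPM at 500 mOsm and 951, 924 and 960.2 CPM at 600 mOsm. The 500 mOsm libraries lay above all others, while iso-osmolar and 600 mOsm libraries overlapped (log2 fold change 0.18 ± 0.039, adjusted p = 0.00362). It was lower at 600 than at 500 mOsm (log2 fold change -0.13 ± 0.039, adjusted p = 0.0232), a call that held in 12 of 20 alternative settings. Its adjusted p ran from 0.0668 to 0.126 when 500 mOsm replicate 2, 600 mOsm replicate 1 or 600 mOsm replicate 2 was left out. Eif4a3, the exon junction complex helicase, was higher at 600 than at 500 mOsm (log2 fold change 0.15 ± 0.040, adjusted p = 0.0134) and was not called against iso-osmolar cells. Its adjusted p was 0.051 without 500 mOsm replicate 1, and without 600 mOsm replicate 1 it was 0.0577. Its call was also lost under the GC content and length correction (log2 fold change 0.056, adjusted p = 0.241), which called Eif4b higher at 600 mOsm than in iso-osmolar cells (log2 fold change 0.12, adjusted p = 0.00844). Eif4h was not called, but was lower at 600 mOsm against iso-osmolar under that correction (log2 fold change -0.14, adjusted p = 0.00474).

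**Figure D2:**
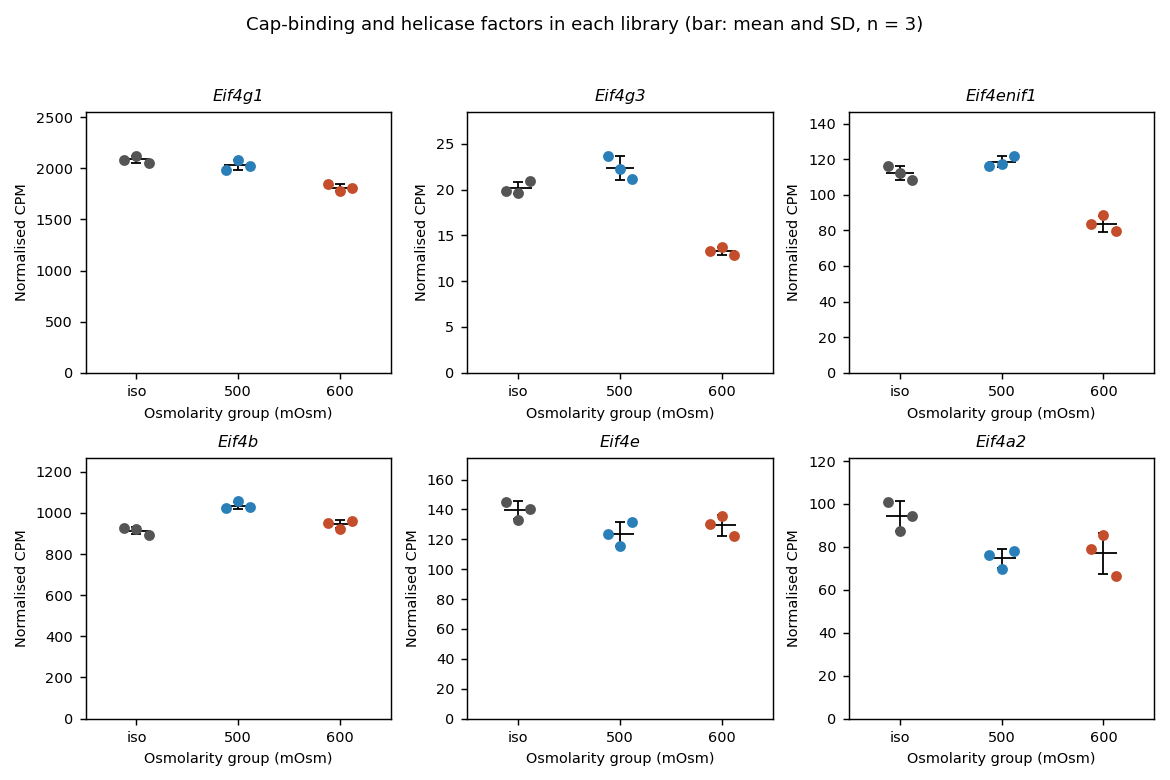
CPM in each library of Eif4g1, Eif4g3, Eif4enif1, Eif4b, Eif4e and Eif4a2, by osmolarity group, with the mean and SD (n = 3) in black and axes from 0. In the panels of Eif4g1, Eif4g3 and Eif4enif1 the 600 mOsm points lie below all others, and in that of Eif4b the 500 mOsm points lie above all others.

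Of the 4E-binding proteins, which block eIF4F assembly, Eif4ebp2 was lower at 500 mOsm. Eif4ebp2 was at 164, 176 and 164 CPM in the iso-osmolar libraries, 143, 146 and 135 CPM at 500 mOsm and 158, 147 and 162 CPM at 600 mOsm, with the 500 mOsm libraries below all others (log2 fold change -0.25 ± 0.054, adjusted p = 0.00348). At 600 mOsm it was not called against iso-osmolar cells (log2 fold change -0.11 ± 0.054, adjusted p = 0.126), though it was called in 5 of 20 alternative settings, or against 500 mOsm (log2 fold change 0.14 ± 0.054, adjusted p = 0.0736). Without 600 mOsm replicate 2 the adjusted p of Eif4ebp2 between the intensities was 0.0326. Eif4ebp1, the best known member, was at 154, 168 and 159 CPM in the iso-osmolar libraries, 166, 177 and 156 CPM at 500 mOsm and 173, 155 and 189 CPM at 600 mOsm. Its 3 groups overlapped, and it was not called (0.054 ± 0.071, 0.11 ± 0.071 and 0.052 ± 0.071). Eif4ebp3 had 4, 3 and 8 counts in the iso-osmolar libraries, 2, 1 and 1 at 500 mOsm and 2, 0 and 1 at 600 mOsm, and was not tested.

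Among the factors that govern scanning and start codon choice, Eif1a had the largest change. Eif1a, an autosomal eIF1A gene, was at 72.4, 63.2 and 63.3 CPM in the iso-osmolar libraries, 49.6, 42.5 and 40.4 CPM at 500 mOsm and 59.2, 62.6 and 57.4 CPM at 600 mOsm. The 500 mOsm libraries were the lowest, the 600 mOsm libraries lay between and no 2 groups overlapped. It fell by 33.4% at 500 mOsm (log2 fold change -0.59 ± 0.082, adjusted p = 0.000139), was 35.3% higher at 600 than at 500 mOsm (log2 fold change 0.44 ± 0.082, adjusted p = 0.00157) and was not called at 600 mOsm against iso-osmolar (log2 fold change -0.15 ± 0.081, adjusted p = 0.171). Eif1ax, the X-linked eIF1A gene, averaged 138 ± 12.2 CPM in iso-osmolar cells (SD, n = 3) and was not called (-0.026 ± 0.069, -0.0092 ± 0.069 and 0.017 ± 0.069).

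Eif1, which opens the small subunit for scanning, was at 702, 626 and 659 CPM in the iso-osmolar libraries, 579.8, 625 and 699 CPM at 500 mOsm and 583, 576 and 516 CPM at 600 mOsm. Its 600 mOsm libraries lay below the iso-osmolar ones without overlap (log2 fold change -0.25 ± 0.071, adjusted p = 0.0174), and the 500 mOsm libraries overlapped both. Once iso-osmolar replicate 1 was left out its adjusted p was 0.0722, and without 600 mOsm replicate 3 it was 0.0743. Eif1 was not called between the intensities (log2 fold change -0.19 ± 0.071, adjusted p = 0.0694). Without 500 mOsm replicate 1 that adjusted p was 0.027. Its paralog Eif1b went the other way between the intensities (log2 fold change 0.23 ± 0.058, adjusted p = 0.0097). The GC content and length correction reversed which of the pair was called there, with log2 fold change -0.25, adjusted p = 0.00455 for Eif1 and log2 fold change 0.10, adjusted p = 0.119 for Eif1b.

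Eif1ad, a protein with an eIF1A-like domain, was at 99.8, 96.8 and 95.9 CPM in the iso-osmolar libraries, 75.4, 82.9 and 77.4 CPM at 500 mOsm and 85.3, 88.7 and 85.8 CPM at 600 mOsm. Both stressed groups were below the iso-osmolar one, with 500 mOsm the lowest (log2 fold change -0.31 ± 0.051, adjusted p = 0.000468 at 500 mOsm, and log2 fold change -0.17 ± 0.051, adjusted p = 0.0198 at 600 mOsm). At 600 mOsm adjusted p values from 0.0568 to 0.0726 resulted when iso-osmolar replicate 1, 600 mOsm replicate 1 or 600 mOsm replicate 3 was left out. The 500 mOsm call of Eif1ad held in 20 of 20 alternative settings. Between the intensities it was not called (log2 fold change 0.14 ± 0.051, adjusted p = 0.0568), and without 500 mOsm replicate 2 the adjusted p was 0.0262. Transcripts of Eif1ad share 428 bases with those of Banf1, which has 7490 counts per library on average beside 2135 for Eif1ad, and reads of the shared stretch could be counted to either gene. Banf1 was higher at 600 mOsm than in iso-osmolar cells (log2 fold change 0.15, adjusted p = 0.0373).

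The subunits of eIF2 itself did not pass the test in any comparison. Eif2s1, the alpha subunit that the kinases phosphorylate, was at 92.9, 80.2 and 85.1 CPM in the iso-osmolar libraries, 88.4, 82.5 and 88.7 CPM at 500 mOsm and 87.9, 90.9 and 84.0 CPM at 600 mOsm. The 3 groups overlapped, and its log2 fold changes were 0.0087 ± 0.062, 0.025 ± 0.062 and 0.017 ± 0.062. Eif2s3x, the X-linked gamma subunit that binds GTP and the tRNA, was at 351, 328 and 315 CPM in the iso-osmolar libraries, 336, 315 and 314 CPM at 500 mOsm and 299, 315 and 307 CPM at 600 mOsm. It was not called either (-0.040 ± 0.051, -0.11 ± 0.051 and -0.070 ± 0.051).

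Eif2s2, the beta subunit, was at 93.4, 103 and 118 CPM in the iso-osmolar libraries, 122, 94.7 and 94.4 CPM at 500 mOsm and 114, 142 and 128 CPM at 600 mOsm. It varied more between replicates, and the groups overlapped. It was near the threshold at 600 mOsm against iso-osmolar (log2 fold change 0.28 ± 0.11, adjusted p = 0.0638) and against 500 mOsm (log2 fold change 0.30 ± 0.11, adjusted p = 0.0574). It was called higher in 8 of 20 and 10 of 20 alternative settings, among them the one without 500 mOsm replicate 1 (adjusted p = 0.03 and 0.00973) and the one without iso-osmolar replicate 3 (0.0303 and 0.0421). The other settings without 1 library in which it was called left out 600 mOsm replicate 1 (0.0442 and 0.0402) and, between the intensities, iso-osmolar replicate 1 (0.0447). Eif2d, which can deliver tRNA without GTP, was higher at 600 mOsm than in iso-osmolar cells (log2 fold change 0.18 ± 0.059, adjusted p = 0.0342). Its adjusted p ran from 0.0778 to 0.119 when iso-osmolar replicate 1, iso-osmolar replicate 3, 600 mOsm replicate 1 or 600 mOsm replicate 3 was left out. That call of Eif2d held in 13 of 20 alternative settings. Eif2a was near the threshold at 600 mOsm against iso-osmolar (log2 fold change 0.23 ± 0.086, adjusted p = 0.0525) and was called there in 9 of 20 alternative settings, among them those without 500 mOsm replicate 1, 500 mOsm replicate 2 or 600 mOsm replicate 1. Transcripts of Eif2a share sequence with those of 10 other listed genes, which together held 9901 counts per library on average beside 875 for Eif2a, the largest being Psmd11 with 142 shared bases.

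The eIF2B complex reloads eIF2 with GTP and is the target of phosphorylated eIF2. Eif2b5, its catalytic epsilon subunit (chromosome 16, 20498817 to 20509955, plus strand), was at 185, 194 and 186 CPM in the iso-osmolar libraries, 178, 190.3 and 185 CPM at 500 mOsm and 218, 208 and 209 CPM at 600 mOsm. The 600 mOsm libraries lay above all others (log2 fold change 0.16 ± 0.046, adjusted p = 0.0142 against iso-osmolar, and log2 fold change 0.20 ± 0.045, adjusted p = 0.00615 against 500 mOsm). Leaving out iso-osmolar replicate 1, iso-osmolar replicate 3 or 600 mOsm replicate 1 in turn gave adjusted p values from 0.0544 to 0.0671 against iso-osmolar. The call of Eif2b5 against 500 mOsm held in 20 of 20 alternative settings. Eif2b1, a regulatory subunit, was also higher at 600 than at 500 mOsm (log2 fold change 0.21 ± 0.056, adjusted p = 0.0146). Once 500 mOsm replicate 1 was left out its adjusted p was 0.0553, and without 500 mOsm replicate 2 it was 0.0613. Eif2b3 was lower at 500 mOsm (log2 fold change -0.17 ± 0.053, adjusted p = 0.0294). Adjusted p values from 0.0519 to 0.0905 resulted when iso-osmolar replicate 1, iso-osmolar replicate 2, iso-osmolar replicate 3, 500 mOsm replicate 1 or 500 mOsm replicate 2 was left out. That call of Eif2b3 held in 12 of 20 alternative settings, and the GC content and length correction called it higher at 600 than at 500 mOsm (log2 fold change 0.17, adjusted p = 0.00834). Eif2b2 and Eif2b4 were not called.

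Of the 4 eIF2 kinases 1 fell. Eif2ak3 (PERK, the kinase of the endoplasmic reticulum, chromosome 6, 70844515 to 70905245, plus strand) was at 22.8, 22.0 and 21.9 CPM in the iso-osmolar libraries, 16.5, 16.0 and 17.6 CPM at 500 mOsm and 18.4, 19.5 and 17.5 CPM at 600 mOsm. Every stressed library was below every iso-osmolar one, and the stressed groups overlapped. The fall was 24.9% at 500 mOsm (log2 fold change -0.41 ± 0.075, adjusted p = 0.00103) and 17.0% at 600 mOsm (log2 fold change -0.27 ± 0.075, adjusted p = 0.0146). Without iso-osmolar replicate 1 its adjusted p at 600 mOsm was 0.0521, and without 600 mOsm replicate 3 it was 0.0636. The 600 mOsm call was also lost under the GC content and length correction (log2 fold change -0.17, adjusted p = 0.0605, and log2 fold change -0.17, adjusted p = 0.105 with the replicate block as well), while the 500 mOsm call held in 20 of 20 alternative settings. Under that correction without the block Eif2ak3 was higher at 600 than at 500 mOsm (log2 fold change 0.21, adjusted p = 0.031).

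Eif2ak2 (PKR, the kinase activated by double-stranded RNA or by PACT, chromosome 17, 78852564 to 78882573, minus strand) was at 5.60, 6.59 and 9.03 CPM in the iso-osmolar libraries, 10.4, 8.66 and 8.57 CPM at 500 mOsm and 8.20, 10.5 and 6.96 CPM at 600 mOsm. The groups overlapped and no comparison was called (0.37 ± 0.18, 0.27 ± 0.18 and -0.11 ± 0.18). Without iso-osmolar replicate 3 its adjusted p at 500 mOsm was 0.0276, with a log2 fold change of 0.59. Eif2ak4 (GCN2, activated by uncharged tRNA) was at 21.6, 19.9 and 24.1 CPM in the iso-osmolar libraries, 18.7, 16.8 and 18.8 CPM at 500 mOsm and 18.5, 21.4 and 16.5 CPM at 600 mOsm. It was not called (log2 fold change -0.27 ± 0.11, adjusted p = 0.0757 at 500 mOsm, and log2 fold change -0.22 ± 0.11, adjusted p = 0.133 at 600 mOsm). At 500 mOsm its adjusted p was 0.05 (rounded from below) without iso-osmolar replicate 2 and 0.0434 without 600 mOsm replicate 2, and without the latter it was 0.0358 at 600 mOsm. Eif2ak1 (HRI, the heme-regulated kinase) was at 49.1, 46.2 and 48.3 CPM in the iso-osmolar libraries, 44.4, 46.4 and 52.5 CPM at 500 mOsm and 42.4, 45.0 and 38.1 CPM at 600 mOsm. It was not called (log2 fold change -0.19 ± 0.078, adjusted p = 0.0716 at 600 mOsm against iso-osmolar, and log2 fold change -0.19 ± 0.078, adjusted p = 0.0831 against 500 mOsm). Without 600 mOsm replicate 2 these adjusted p values were 0.0378 and 0.0451, and without 500 mOsm replicate 3 the first was 0.0476. Aimp2 shares 488 bases of transcript with Eif2ak1, and reads there could be counted to either.

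**Figure D3:**
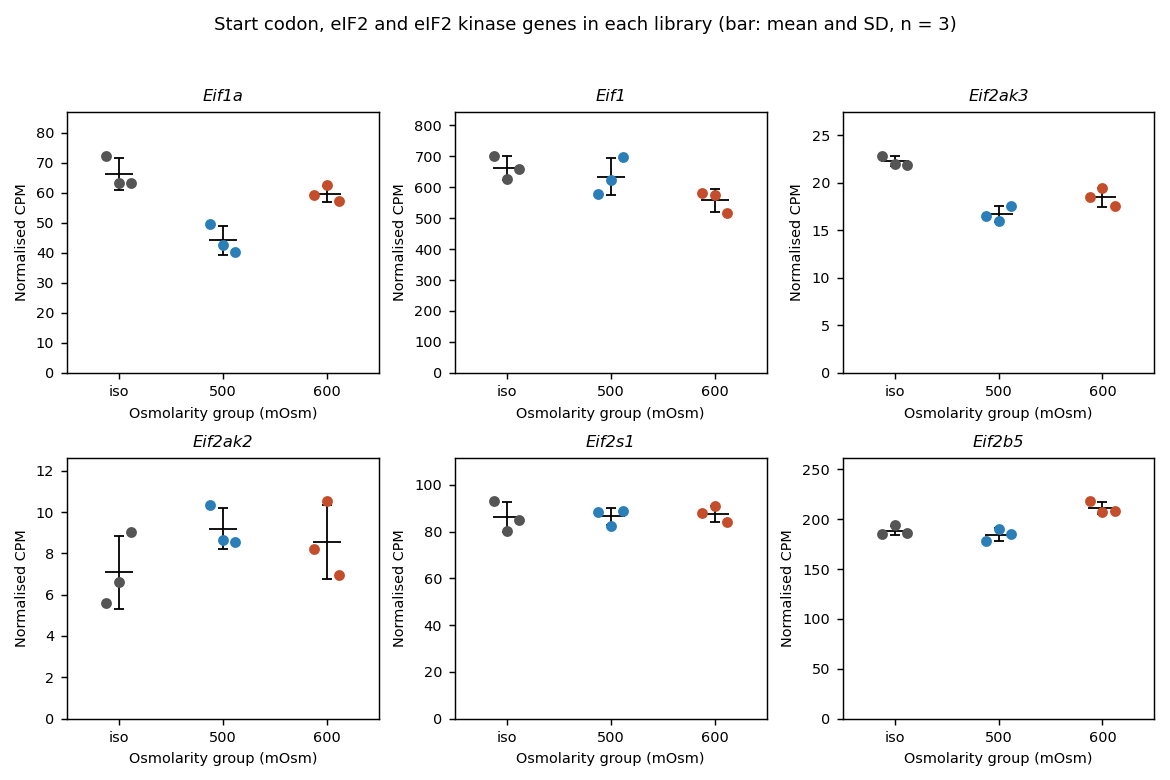
CPM in each library of Eif1a, Eif1, Eif2ak3, Eif2ak2, Eif2s1 and Eif2b5, by osmolarity group, with the mean and SD (n = 3) in black and axes from 0. Eif1a is lowest at 500 mOsm, Eif2ak3 lies below the iso-osmolar points in both stressed groups, Eif2b5 is highest at 600 mOsm and the groups of Eif2ak2 and Eif2s1 overlap.

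eIF3 is the scaffold that holds the small ribosomal subunit together with the other factors. No eIF3 subunit was called at 500 mOsm against iso-osmolar, where the 14 log2 fold changes ran from -0.23 (Eif3j2) to 0.17 (Eif3a). At 600 mOsm 4 subunits were higher than in iso-osmolar cells and 0 lower, and between the intensities 8 were higher and 0 lower, beside 15.1% and 11.9% of all genes called higher in these comparisons, with a median log2 fold change of 0.17 over the 14. In the 20 alternative settings 5 to 8 subunits were higher at 600 than at 500 mOsm and none was lower, with 5 under the GC content and length correction with the replicate block. At 500 mOsm against iso-osmolar 1 subunit, Eif3l, was lower under the GC content and length correction (adjusted p = 0.0309).

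Eif3d, a subunit at the edge of the complex that can itself bind the cap (chromosome 15, 77958998 to 77970824, minus strand), was at 147, 155 and 147 CPM in the iso-osmolar libraries, 145, 145 and 134 CPM at 500 mOsm and 178, 164 and 180.1 CPM at 600 mOsm. The 600 mOsm libraries were above all others (log2 fold change 0.30 ± 0.053, adjusted p = 0.000998 against 500 mOsm, and log2 fold change 0.22 ± 0.053, adjusted p = 0.00743 against iso-osmolar). Eif3h (chromosome 15, 51786558 to 51865481, minus strand), of the MPN domain pair with Eif3f, was at 1151, 1159 and 1170.2 CPM in the iso-osmolar libraries, 1118, 1152 and 1229.6 CPM at 500 mOsm and 1351, 1356 and 1429 CPM at 600 mOsm. Its iso-osmolar and 500 mOsm libraries overlapped and the 600 mOsm ones stood 18.9% above iso-osmolar (log2 fold change 0.25 ± 0.045, adjusted p = 0.00108) and 18.2% above 500 mOsm (log2 fold change 0.24 ± 0.045, adjusted p = 0.00157). Eif3i, a WD-repeat subunit (chromosome 4, 129591960 to 129600648, minus strand), was at 323, 323 and 308 CPM in the iso-osmolar libraries, 311, 319 and 329 CPM at 500 mOsm and 373, 369 and 391 CPM at 600 mOsm. The order was the same, with the 600 mOsm libraries apart (log2 fold change 0.25 ± 0.044, adjusted p = 0.000912 against iso-osmolar, and log2 fold change 0.24 ± 0.044, adjusted p = 0.00129 against 500 mOsm).

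Eif3l was at 419, 411 and 398 CPM in the iso-osmolar libraries, 366, 378 and 392 CPM at 500 mOsm and 447, 431 and 436 CPM at 600 mOsm, with the 500 mOsm libraries lowest and the 600 mOsm libraries highest. It was called between the intensities (log2 fold change 0.21 ± 0.043, adjusted p = 0.00275) and not against iso-osmolar (log2 fold change -0.11 ± 0.043, adjusted p = 0.0728 at 500 mOsm, and log2 fold change 0.10 ± 0.043, adjusted p = 0.095 at 600 mOsm). Without 500 mOsm replicate 3 the adjusted p of Eif3l at 500 mOsm was 0.0426. The other called subunits between the intensities were Eif3k (0.27 ± 0.061), Eif3m (0.22 ± 0.057), Eif3e (0.23 ± 0.070) and Eif3f (0.13 ± 0.045). The call of Eif3f held in 5 of 20 alternative settings and that of Eif3e in 10 of 20. Leaving out iso-osmolar replicate 1, iso-osmolar replicate 2, iso-osmolar replicate 3, 500 mOsm replicate 1, 500 mOsm replicate 2, 600 mOsm replicate 1 or 600 mOsm replicate 3, one at a time, gave Eif3f adjusted p values from 0.052 to 0.153. The call was lost without 500 mOsm replicate 1, 500 mOsm replicate 2, 600 mOsm replicate 2 or 600 mOsm replicate 3 (Eif3e adjusted p from 0.0518 to 0.0943). Transcripts of Eif3e share sequence with those of 10 other listed genes, which together held 1825 counts per library on average beside 4831 for Eif3e. The largest of them was Fech, with 131 shared bases. Eif3m was also called at 600 mOsm against iso-osmolar (log2 fold change 0.18 ± 0.057, adjusted p = 0.0296). Adjusted p values from 0.0607 to 0.087 resulted when iso-osmolar replicate 1, iso-osmolar replicate 2, iso-osmolar replicate 3, 600 mOsm replicate 2 or 600 mOsm replicate 3 was left out. The GC content and length correction left Eif3k and Eif3e short of the threshold between the intensities (log2 fold change 0.15, adjusted p = 0.079, and log2 fold change 0.10, adjusted p = 0.344) and Eif3m at 600 mOsm against iso-osmolar (log2 fold change 0.14, adjusted p = 0.074).

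The 6 subunits not called in any comparison were Eif3a, Eif3b, Eif3c, Eif3g, Eif3j1 and Eif3j2. Eif3b, the RNA-recognition scaffold, averaged 1588 ± 40.4 CPM in iso-osmolar cells and 1609.8 ± 41.2 CPM at 600 mOsm (SD, n = 3). Eif3a, the largest subunit, was at 115, 144 and 234 CPM in the iso-osmolar libraries, 249.9, 157 and 149.6 CPM at 500 mOsm and 174, 232 and 185 CPM at 600 mOsm. Each group of Eif3a held a library well above the other 2, namely iso-osmolar replicate 3, 500 mOsm replicate 1 and 600 mOsm replicate 2. Eif5b was also above its group mean in these 3 libraries, by 0.53, 0.37 and 0.27 in log2 CPM. Over 9413 genes these libraries correlated with each other at 0.40 to 0.56 in their deviations from the group means. The part of this shared variation in the spread of Eif3a was not tested. Eif3a had the highest within-group SD of log2 CPM of the factor genes, 0.41, ahead of Eif5b at 0.38, beside a median of 0.068. Without iso-osmolar replicate 3 Eif3a was called higher at 600 mOsm than in iso-osmolar cells (log2 fold change 0.61, adjusted p = 0.0365). Eif3j1 and Eif3j2 are near-identical copies that share 2379 bases, so their split is uncertain.

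In the eEF1 group, which was taken by symbol and includes Eef1e1, the 5 genes tested were all higher at 600 than at 500 mOsm. Their log2 fold changes were 0.16 to 0.21. In the 20 alternative settings 2 to 5 of them were called and none was lower, and the count was 2 without 500 mOsm replicate 1, 3 without 600 mOsm replicate 1 and 3 with only the 2 groups compared in the fit. At 500 mOsm against iso-osmolar 1 was lower, and 2 were without 500 mOsm replicate 3. Eef1a1 (chromosome 9, 78478449 to 78489151, minus strand) was at 7302, 6831 and 7004 CPM in the iso-osmolar libraries, 7184, 6887 and 7945 CPM at 500 mOsm and 8115, 8479 and 8092 CPM at 600 mOsm. The 600 mOsm libraries were the 3 highest, although 500 mOsm replicate 3 came close to them (log2 fold change 0.22 ± 0.054, adjusted p = 0.00653 against iso-osmolar, and log2 fold change 0.16 ± 0.054, adjusted p = 0.0367 against 500 mOsm). The second call held in 9 of 20 alternative settings. Its adjusted p ran from 0.0617 to 0.145 when 500 mOsm replicate 1, 500 mOsm replicate 2, 600 mOsm replicate 1, 600 mOsm replicate 2 or 600 mOsm replicate 3 was left out. Listed genes that share sequence with Eef1a1, most of them pseudogenes, held 0.598% as many counts as Eef1a1 itself.

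Eef1b2, the beta subunit that exchanges GDP on eEF1A, was at 505, 469 and 473 CPM in the iso-osmolar libraries, 471, 474 and 494 CPM at 500 mOsm and 567, 551 and 551 CPM at 600 mOsm. Its 600 mOsm libraries were above all others (log2 fold change 0.21 ± 0.044, adjusted p = 0.00319 against iso-osmolar, and log2 fold change 0.21 ± 0.044, adjusted p = 0.00289 against 500 mOsm). Eef1e1 (AIMP3, a scaffold protein of the multi-synthetase complex) was at 94.9, 91.3 and 90.2 CPM in the iso-osmolar libraries, 75.6, 79.7 and 79.3 CPM at 500 mOsm and 88.5, 87.1 and 89.7 CPM at 600 mOsm. It was lower at 500 mOsm than in both other groups (log2 fold change -0.24 ± 0.047, adjusted p = 0.00211 against iso-osmolar, and log2 fold change 0.18 ± 0.047, adjusted p = 0.0136 for 600 against 500 mOsm). At 600 mOsm against iso-osmolar Eef1e1 was not called (log2 fold change -0.059, adjusted p = 0.36). Between the intensities its adjusted p was 0.057 without 500 mOsm replicate 1. The GC content and length correction also ended the call between the intensities (log2 fold change 0.11, adjusted p = 0.124, and log2 fold change 0.11, adjusted p = 0.186 with the replicate block as well). Eef1d and Eef1g, the delta and gamma subunits, were higher at 600 than at 500 mOsm (log2 fold change 0.21 ± 0.052, adjusted p = 0.0102, and log2 fold change 0.18 ± 0.051, adjusted p = 0.0199). Once 500 mOsm replicate 1 was left out the Eef1g adjusted p was 0.0714, and without 600 mOsm replicate 1 it was 0.0792.

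**Figure D4:**
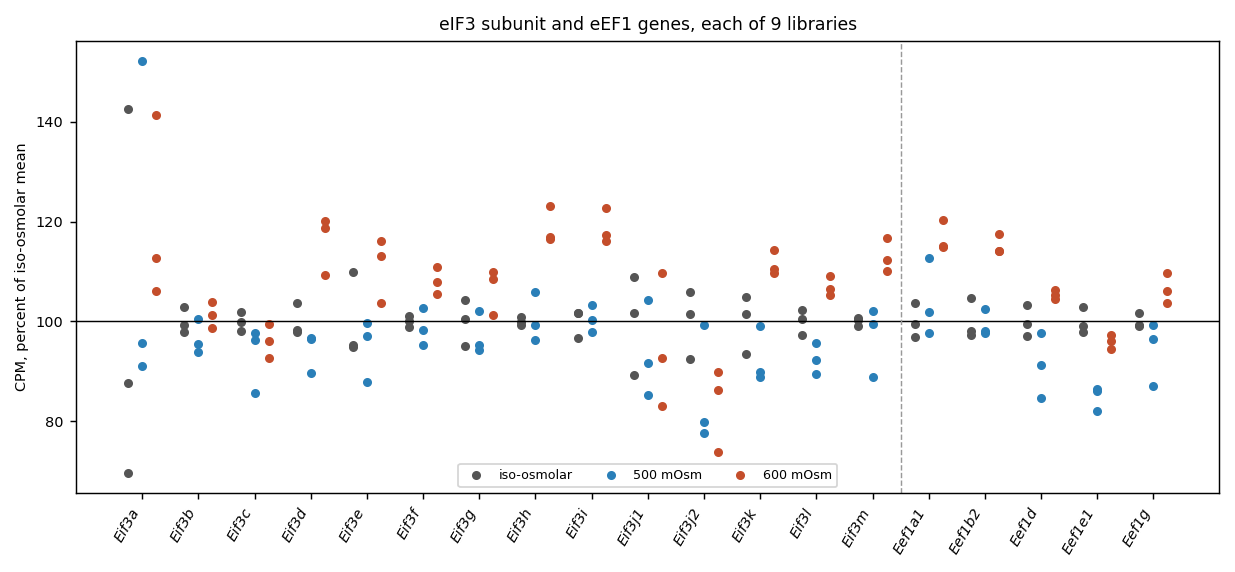
CPM in each of the 9 libraries as percent of the gene's iso-osmolar mean, for the 14 eIF3 subunits (left of the dashed line) and the 5 eEF1 genes tested (right), with one colour per osmolarity group. The 600 mOsm points lie above the 500 mOsm points for all 13 genes called between the intensities, and the points of Eif3a spread widely in each group.

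Eef2, the translocase, was at 8971, 9645 and 9176 CPM in the iso-osmolar libraries, 9548, 10070.1 and 9178 CPM at 500 mOsm and 10434, 9793 and 10957 CPM at 600 mOsm. The 600 mOsm libraries were above the iso-osmolar ones without overlap (log2 fold change 0.17 ± 0.053, adjusted p = 0.0276) and overlapped those at 500 mOsm (log2 fold change 0.11 ± 0.053, adjusted p = 0.126). Adjusted p values from 0.0709 to 0.122 resulted when iso-osmolar replicate 1, iso-osmolar replicate 3, 600 mOsm replicate 1 or 600 mOsm replicate 3 was left out. Its adjusted p was 0.0681 with the replicate block, and with the GC content and length correction the log2 fold change fell to 0.10 (adjusted p = 0.0117). Without 600 mOsm replicate 2 the adjusted p of Eef2 between the intensities was 0.0455. Eef2k, the kinase that inactivates eEF2, was at 36.5, 34.4 and 37.1 CPM in the iso-osmolar libraries, 33.8, 33.3 and 35.9 CPM at 500 mOsm and 37.6, 35.8 and 37.8 CPM at 600 mOsm. It was not called (-0.068 ± 0.062, 0.044 ± 0.062 and 0.11 ± 0.062), though the correction for GC content and length gave log2 fold changes of 0.24 at 600 mOsm against iso-osmolar (adjusted p = 0.00612) and 0.27 between the intensities (adjusted p = 0.00286). Eif5a was not called (0.011 ± 0.051, 0.032 ± 0.051 and 0.021 ± 0.051), but the GC content and length correction turned its direction and called it lower at 600 mOsm (log2 fold change -0.094, adjusted p = 0.0221 against iso-osmolar, and log2 fold change -0.084, adjusted p = 0.0423 against 500 mOsm), while its low paralog Eif5a2 was lower at 600 mOsm (log2 fold change -0.35 ± 0.12, adjusted p = 0.0406). Its adjusted p ran from 0.0513 to 0.188 when iso-osmolar replicate 1, iso-osmolar replicate 2, 500 mOsm replicate 3, 600 mOsm replicate 1 or 600 mOsm replicate 3 was left out. That call of Eif5a2 held in 8 of 20 alternative settings. Eif5, Eif5b and Eif6, which act at start codon recognition, subunit joining and subunit anti-association, were not called.

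Within a pair of paralogs the share of the first gene, as percent of the summed FPKM of both, does not depend on scaling between libraries. Eif4a1 held 88.9% ± 0.410 (SD, n = 3) of the Eif4a1 and Eif4a2 sum in iso-osmolar cells, 90.5% ± 0.549 at 500 mOsm and 90.9% ± 0.772 at 600 mOsm. Eif4ebp1 held 63.4% ± 0.389, 68.2% ± 0.539 and 66.8% ± 1.10 of the sum with Eif4ebp2. Both shares were higher in every stressed library than in every iso-osmolar one. Eif1 held 91.3% ± 0.532, 91.6% ± 0.748 and 89.1% ± 0.737 of the sum with Eif1b, lowest at 600 mOsm, and Eif4g1 held 99.3% ± 0.0330, 99.2% ± 0.0543 and 99.5% ± 0.0233 of the sum with Eif4g3. Over the 24 exact two-sided permutation tests of 8 pairs the smallest adjusted p was 0.2, since 3 against 3 libraries cannot go below 0.1 unadjusted.

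Promoters were read from RefSeq (GRCm38.p6) for 49 of the 63 factor genes, as the 250 bases before and 50 bases after the annotated start, and searched on both strands for motifs of factors tied to growth and stress. The palindrome CACGTG, the E-box that Myc and its relatives bind, was present for 12 of the 49 (24.5%), beside 9.2% of 15796 coding genes. A gene counted if any of its annotated starts had a match. The coding genes were not filtered for expression or matched to the factor genes in level or number of starts. The 12 were Eif1b, Eif3a, Eif3f, Eif3k, Eif4a1, Eif4h, Eif4e, Eif4g1, Eif5a, Eif5a2, Eef2 and Eef2k. They include genes higher, lower and not called at 600 mOsm. The amino acid response motif TGATGNAA was present for 2 (4.1%, beside 4.0% of coding genes) and TGACGTCA, the cyclic AMP response element, for 1 (2.0%, beside 2.6%), Eef2. The promoters of Eef2 (higher at 600 mOsm than in iso-osmolar cells), Eif3k (higher at 600 than at 500 mOsm) and Eif4g1 (lower at 600 mOsm) are shown because they carry the same motif in genes that moved in opposite directions. Capitals mark CACGTG, at 43 bases before the start in Eef2, 44 before it in Eif3k, and 54 before and 15 after it in Eif4g1. A match is a description and not a bound site.
Eef2 (chr10:81176381-81176680, plus strand): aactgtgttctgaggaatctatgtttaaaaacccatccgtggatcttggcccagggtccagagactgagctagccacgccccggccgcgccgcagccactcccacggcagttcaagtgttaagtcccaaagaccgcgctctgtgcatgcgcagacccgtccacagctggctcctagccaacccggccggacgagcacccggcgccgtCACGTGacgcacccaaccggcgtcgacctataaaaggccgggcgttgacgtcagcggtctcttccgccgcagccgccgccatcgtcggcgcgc
Eif3k (chr7:28981839-28982138, minus strand): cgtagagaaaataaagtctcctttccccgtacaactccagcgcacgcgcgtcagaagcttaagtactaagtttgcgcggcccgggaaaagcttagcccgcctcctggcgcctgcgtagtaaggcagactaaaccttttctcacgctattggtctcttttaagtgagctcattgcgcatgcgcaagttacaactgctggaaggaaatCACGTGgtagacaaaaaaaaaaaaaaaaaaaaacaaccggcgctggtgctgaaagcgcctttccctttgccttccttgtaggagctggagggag
Eif4g1 (chr16:20672477-20672776, plus strand): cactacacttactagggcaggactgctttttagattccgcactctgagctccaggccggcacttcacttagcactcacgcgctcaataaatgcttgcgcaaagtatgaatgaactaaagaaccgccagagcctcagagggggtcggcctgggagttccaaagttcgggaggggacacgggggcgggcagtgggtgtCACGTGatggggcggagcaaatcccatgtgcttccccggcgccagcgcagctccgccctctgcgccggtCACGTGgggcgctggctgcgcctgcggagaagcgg

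Other genes of translation control were listed by symbol, and 51 of the 53 in the table were tested. At 500 mOsm against iso-osmolar 6 were higher and 9 lower, at 600 mOsm against iso-osmolar 9 were higher and 8 lower, and between the intensities 6 were higher and 7 lower at 600 mOsm. Over all genes the shares higher and lower were 13.2% and 14.8%, 15.1% and 20.0%, and 11.9% and 17.2% in these comparisons, beside 11.8% and 17.6%, 17.6% and 15.7% and 11.8% and 13.7% of the 51, so the counts of the list were not far from the background. Prkra (PACT, the activator of PKR) was at 14.0, 12.7 and 12.4 CPM in the iso-osmolar libraries, 14.2, 13.9 and 16.2 CPM at 500 mOsm and 13.7, 15.6 and 15.5 CPM at 600 mOsm. It was not called (0.18 ± 0.095, 0.20 ± 0.10 and 0.019 ± 0.094). Tarbp2 (TRBP, which inhibits PKR) was higher at 600 than at 500 mOsm (log2 fold change 0.42 ± 0.085, adjusted p = 0.00238).

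Ppp1r15a (GADD34, the inducible subunit that directs a phosphatase to eIF2 alpha) was at 20.5, 23.9 and 22.4 CPM in the iso-osmolar libraries, 183, 194 and 176 CPM at 500 mOsm and 28.2, 26.2 and 28.8 CPM at 600 mOsm. It was 8.29-fold higher at 500 mOsm than in iso-osmolar cells (log2 fold change 3.05 ± 0.069, adjusted p = 1.01e-11) and far lower at 600 than at 500 mOsm (log2 fold change -2.73 ± 0.067, adjusted p = 2.10e-11), with a small rise left at 600 mOsm (log2 fold change 0.32 ± 0.070, adjusted p = 0.00373). Ppp1r15b (CReP, the constitutive counterpart) was at 194, 195 and 190.2 CPM in the iso-osmolar libraries, 133, 134 and 134 CPM at 500 mOsm and 146, 139 and 134 CPM at 600 mOsm. It fell in both stressed groups (log2 fold change -0.53 ± 0.045, adjusted p = 1.95e-06 at 500 mOsm, and log2 fold change -0.47 ± 0.045, adjusted p = 6.66e-06 at 600 mOsm, where the GC content and length correction gave log2 fold change -0.28, adjusted p = 0.000135). Between the intensities Ppp1r15b was not called (log2 fold change 0.061 ± 0.045, adjusted p = 0.355). That correction called it higher at 600 than at 500 mOsm (log2 fold change 0.205, adjusted p = 0.00192, and adjusted p = 0.00798 with the replicate block as well). Nck1, an adaptor protein of the same group, was lower at 500 mOsm (log2 fold change -0.42 ± 0.10, adjusted p = 0.00853) and higher at 600 than at 500 mOsm (log2 fold change 0.34 ± 0.11, adjusted p = 0.0279). The second call of Nck1 was lost with DESeq2, with limma at either pseudocount and without 500 mOsm replicate 2, 500 mOsm replicate 3, 600 mOsm replicate 1 or 600 mOsm replicate 2 (adjusted p from 0.0527 to 0.1).

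Ddit4 (REDD1, an inhibitor of mTORC1) was at 12.3, 16.3 and 12.4 CPM in the iso-osmolar libraries, 139, 137 and 123 CPM at 500 mOsm and 32.2, 27.7 and 28.8 CPM at 600 mOsm. It was highest at 500 mOsm, 9.69-fold above iso-osmolar (log2 fold change 3.28 ± 0.10, adjusted p = 2.47e-10), and stayed 2.16-fold above it at 600 mOsm (log2 fold change 1.11 ± 0.11, adjusted p = 6.52e-06). Its fall between the intensities had a log2 fold change of -2.17 ± 0.10 (adjusted p = 7.64e-09). Sesn2, another inhibitor of mTORC1, was lower at 500 mOsm (log2 fold change -0.68 ± 0.10, adjusted p = 0.000233) and higher at 600 than at 500 mOsm (log2 fold change 0.47 ± 0.10, adjusted p = 0.00443). Rptor, the raptor subunit of mTORC1, was higher at both (log2 fold change 0.25 ± 0.054, adjusted p = 0.0037 at 500 mOsm, and log2 fold change 0.25 ± 0.054, adjusted p = 0.00361 at 600 mOsm). Larp1, the binder of TOP mRNAs downstream of mTORC1, was at 696, 689.6 and 689.7 CPM in the iso-osmolar libraries, 617, 616 and 626 CPM at 500 mOsm and 449, 457 and 429 CPM at 600 mOsm. It fell in steps, by 10.4% at 500 mOsm (log2 fold change -0.16 ± 0.040, adjusted p = 0.00948) and 35.6% at 600 mOsm (log2 fold change -0.64 ± 0.040, adjusted p = 1.70e-07), and the groups did not overlap. Between the intensities its log2 fold change was -0.48 ± 0.040 (adjusted p = 2.30e-06).

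Pabpc1, the poly(A)-binding protein that eIF4G contacts to close the mRNA loop, was at 2488, 2345 and 2376 CPM in the iso-osmolar libraries, 2216, 2162 and 2436 CPM at 500 mOsm and 1899.8, 1996 and 1923 CPM at 600 mOsm. It fell at 600 mOsm (log2 fold change -0.31 ± 0.050, adjusted p = 0.000499 against iso-osmolar, and log2 fold change -0.23 ± 0.050, adjusted p = 0.0045 against 500 mOsm) and was not called at 500 mOsm (log2 fold change -0.081 ± 0.050, adjusted p = 0.272), where its adjusted p was 0.0493 without 500 mOsm replicate 3. Etf1 (eRF1, the termination factor) was at 263, 221 and 239 CPM in the iso-osmolar libraries, 213, 193 and 205 CPM at 500 mOsm and 163, 191 and 169 CPM at 600 mOsm, lower at 500 mOsm (log2 fold change -0.24 ± 0.073, adjusted p = 0.0243), lower at 600 mOsm (log2 fold change -0.47 ± 0.073, adjusted p = 0.000376) and lower at 600 than at 500 mOsm (log2 fold change -0.22 ± 0.073, adjusted p = 0.0372). The 500 mOsm call of Etf1 was lost with the replicate block, with limma on log2(FPKM + 1) and without iso-osmolar replicate 1, 500 mOsm replicate 2 or 500 mOsm replicate 3 (adjusted p from 0.0518 to 0.101). The call between the intensities was lost with the block, with limma at either pseudocount and without iso-osmolar replicate 3, 500 mOsm replicate 1, 500 mOsm replicate 3, 600 mOsm replicate 1 or 600 mOsm replicate 3 (adjusted p from 0.0506 to 0.157). Ddx3x, a helicase of scanning, was higher at 500 mOsm (log2 fold change 0.70 ± 0.13, adjusted p = 0.00103) and lower at 600 than at 500 mOsm (log2 fold change -0.70 ± 0.13, adjusted p = 0.00109). Mknk1, an eIF4E kinase, was higher at both intensities (log2 fold change 0.39 ± 0.072, adjusted p = 0.00116 at 500 mOsm, and log2 fold change 0.27 ± 0.073, adjusted p = 0.0127 at 600 mOsm), the second call being lost without 600 mOsm replicate 1 (adjusted p = 0.0636). Mif4gd, an eIF4G-like protein of histone mRNA translation, was also higher at both (log2 fold change 0.26 ± 0.074, adjusted p = 0.0187 at 500 mOsm, and log2 fold change 0.34 ± 0.074, adjusted p = 0.00362 at 600 mOsm). Its 500 mOsm call was lost with no filter on low counts and without iso-osmolar replicate 1, iso-osmolar replicate 3 or 500 mOsm replicate 2 (adjusted p from 0.0528 to 0.0807). Neither was called between the intensities. Dhps, which starts the hypusine modification of eIF5A, was lower at 500 mOsm than in iso-osmolar cells (log2 fold change -0.24 ± 0.062, adjusted p = 0.0113) and higher at 600 than at 500 mOsm (log2 fold change 0.29 ± 0.062, adjusted p = 0.00337, and log2 fold change 0.18, adjusted p = 0.0222 with the GC content and length correction).

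**Figure D5:**
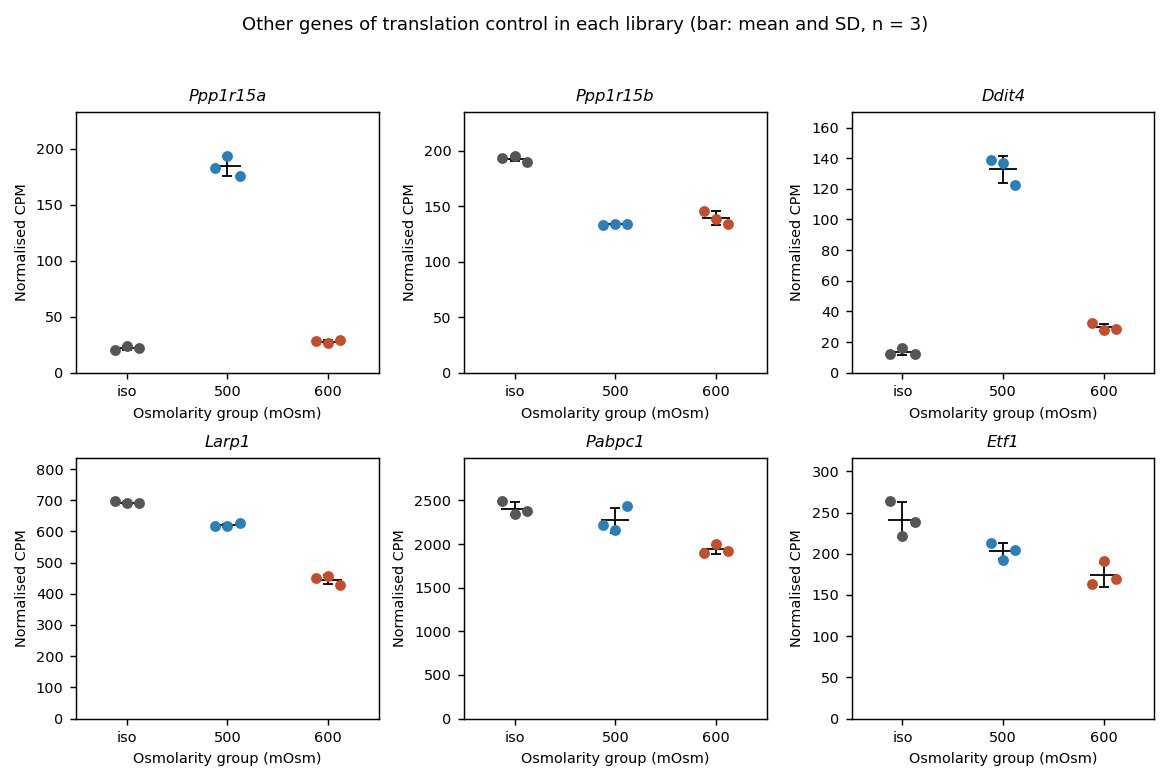
CPM in each library of Ppp1r15a, Ppp1r15b, Ddit4, Larp1, Pabpc1 and Etf1, by osmolarity group, with the mean and SD (n = 3) in black and axes from 0. Ppp1r15a and Ddit4 peak at 500 mOsm, Ppp1r15b is lower in both stressed groups, and Larp1, Pabpc1 and Etf1 are lowest at 600 mOsm.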

How the data were processed

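RNA-seq was performed on 9 libraries of wild type MEFs, 3 per group, from poly-T selected, fragmented RNA with no stated step to mark strand. For every gene the authors deposited whole-number counts, without normalization, and FPKM, which equal those counts divided by the listed gene length and the library total. Reads were aligned to mm10, and STAR and CASAVA 1.8 are named in the submitters' processing notes. The counting tool is not given in the sources used here. Columns of the authors' own fold changes and p-values were not used.

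Genes were tested with edgeR 4.0.16 (quasi-likelihood, TMM, filterByExpr) in R 4.3.3, all 9 libraries in one fit, and p-values were adjusted over the 13082 genes tested. Libraries of one group varied little (common BCV 0.0756), and standard errors of log2 fold changes between 600 and 500 mOsm had a median of 0.058 over factor genes. The test was tried on simulated counts. Members, lists, motifs and tests were chosen with earlier results of these data known. Genes described library by library were, per comparison and direction, the 6 factor genes with the smallest p among those called, together with the eIF2 kinases, the 4E-binding proteins, the eIF2 subunits, Eif4e, Eif4a1, Eif4g1, Eef1a1, Eef2 and Eef2k, and Eif3a for its spread after its values were seen. From the list of other control genes the 4 with the smallest p per comparison and direction were named, with Prkra and Ppp1r15a always. Shared sequence was searched in GENCODE M21 transcripts with blastn (minimum 100 bases, 95% identity), and 30 of 63 factor genes had one. Alternatives were RLE or library-size scaling, no filter or at least 10 counts in every library, DESeq2 1.42.0, limma 3.58.1 on log2 FPKM with 1 or 0.1 added, only the 2 groups compared, a replicate block, a correction for GC content and length without and with that block, and each library left out in turn.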

Additional observations from a re-analysis of the deposited data

How the results depend on the processing

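The alternatives were set with earlier results known, and none turned the direction of a called factor gene named in the text. Eif5a, not called as reported, changed direction and was called lower at 600 mOsm under the GC content and length correction. At 500 mOsm against iso-osmolar the 1 higher factor gene became 2 with no filter on low counts and 2 with the GC content and length correction, and 1 to 2 with 1 library left out. The median of the factor genes, -0.050, was -0.066 with no filter. At 600 mOsm against iso-osmolar 15 factor genes were higher, in place of 9, with the GC content and length correction, and 14 with that correction and the replicate block. The 8 lower genes there became 3 to 11 with 1 library left out. The median, 0.046, was 0.026 by library size alone, 0.025 on log2(FPKM + 1), 0.026 on log2(FPKM + 0.1) and 0.032 to 0.066 with 1 library left out. Between 600 and 500 mOsm the 4 lower genes became 2 to 5 with 1 library left out. The median, 0.11, was 0.093 by library size alone, 0.13 with no filter and 0.093 on log2(FPKM + 1). The causes were not tested. The 18 higher genes were 12 to 21 with 1 library left out. All other counts over the 58 factor genes stayed within 1.5 times the reported ones. The GC content and length correction ended 1 call at 500 mOsm against iso-osmolar, 3 at 600 mOsm against iso-osmolar and 7 between the intensities, and added 3, 10 and 8.

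The replicate block gave 1 higher and 6 lower genes at 500 mOsm against iso-osmolar, 6 and 7 at 600 mOsm against iso-osmolar, and 15 and 3 between the intensities. The labels do not say whether equal replicate numbers mark paired samples. Same-numbered libraries of different groups had a mean correlation of deviations from the group means of -0.22 over 9 pairs, with a range of -0.62 to 0.54. It was 0.11 over 18 pairs with different numbers. Deviations cancel out within a group, which ties these 2 means to each other, so they cannot decide whether the samples were paired. Some libraries of different groups did vary together. Iso-osmolar replicate 3, 500 mOsm replicate 1 and 600 mOsm replicate 2 correlated at 0.40 to 0.56 with each other. Iso-osmolar replicate 2, 500 mOsm replicate 2 and 600 mOsm replicate 3 did so at 0.50 to 0.54. The remaining libraries correlated at 0.16 to 0.49. A block on the numbers does not follow these sets, and their source was not tested. Among 24 paralog share differences, 3 changed sign with 1 library left out (Eif1/Eif1b at 500 mOsm, Eif4e/Eif4e2 between the intensities and Eef1a1/Eef1a2 at 600 mOsm). The 5 factor genes with few or no counts were not tested.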
